A study of Homo sapiens with 16 samples.

Results

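The response to Nutlin-3A alone was followed in p53 wild-type (p53+/+) HCT116 cells, a human colorectal cancer cell line, by comparing the 2 libraries of p53+/+ cells given Nutlin-3A with the 2 of p53+/+ cells given the vehicle DMSO. These 4 of the 16 libraries of the series were chosen by their labelled genotype and treatment, and every gene with a mean RPKM (reads normalised to gene length and to library size) of at least 0.5 over the 16 libraries entered the comparison. Treated cells received 5 µM Nutlin-3A and all cells were collected after 8 hours. The series also holds a derivative of the line that lacks p53 (p53-/-), of which 2 DMSO and 2 Nutlin-3A libraries serve here as the comparison without p53, and both genotypes under 2.5 µM Entinostat, a histone deacetylase inhibitor, alone or with Nutlin-3A. The number of clones behind the p53-/- cells is not given in the labels. Nothing in the labels states that the replicates were separate cultures, so p-values reflect only the spread among these libraries, which may be technical.

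The transcription factor p53 is held low in unstressed cells by MDM2, a ubiquitin ligase whose gene is itself a p53 target, so that the pair forms a negative feedback loop. Nutlin-3A occupies the pocket of MDM2 that binds p53 and thereby stabilises p53 without damaging DNA. p53 binds target genes directly and activates them. Repression of cell cycle genes is largely indirect: the p53 target CDKN1A encodes p21, which inhibits cyclin-dependent kinases, and the underphosphorylated pocket proteins (RB1, and RBL1 or RBL2 within the DREAM complex) then sit on E2F sites and on CHR elements of cell cycle promoters.

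Promoter sequences are shown first because the shares of these elements among genes that rose and fell are given below. They are RefSeq sequences on GRCh38.p14, read 5′ to 3′ on the strand of the gene. The first 3 are the bases before the start site of cell cycle genes. They had the largest falls among the genes considered whose window held a CHR or an E2F-type word. Genes on the chromosome of CCNE2 were left out of this choice. CCNE2, with the largest fall of the listed cell cycle genes, therefore could not be printed. A CHR was searched as TTTGAA, with the variant spelling TTCGAA also allowed, and an E2F-type word as TTCCCGC, with the spelling TTGGCGC also allowed and likewise the spelling TTCGCGC, each on both strands. Capitals mark these words. CENPA, chr2:26785806-26786055 on the plus strand, encodes the centromeric histone and has a CHR at positions -18 to -13 and an E2F-type word at -231 to -225, counted from the start site. E2F2, chr1:23531234-23531483 on the minus strand, encodes an activating E2F factor and has an E2F-type word at -41 to -35. HJURP, chr2:233854536-233854785 on the minus strand, encodes the chaperone of CENPA and has a CHR at -111 to -106. Its window also has an E2F-type word at positions 9 to 15 after the start site, beyond the printed bases.
CENPA: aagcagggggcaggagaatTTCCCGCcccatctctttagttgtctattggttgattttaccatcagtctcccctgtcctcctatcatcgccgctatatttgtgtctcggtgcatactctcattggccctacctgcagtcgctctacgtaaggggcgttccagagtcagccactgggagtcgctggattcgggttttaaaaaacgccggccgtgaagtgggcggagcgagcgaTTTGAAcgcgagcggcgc
E2F2: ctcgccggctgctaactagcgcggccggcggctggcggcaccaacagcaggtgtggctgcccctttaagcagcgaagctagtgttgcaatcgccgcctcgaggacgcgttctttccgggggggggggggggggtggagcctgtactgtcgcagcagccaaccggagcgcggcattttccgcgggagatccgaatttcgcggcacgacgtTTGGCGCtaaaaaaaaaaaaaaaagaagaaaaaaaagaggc
HJURP: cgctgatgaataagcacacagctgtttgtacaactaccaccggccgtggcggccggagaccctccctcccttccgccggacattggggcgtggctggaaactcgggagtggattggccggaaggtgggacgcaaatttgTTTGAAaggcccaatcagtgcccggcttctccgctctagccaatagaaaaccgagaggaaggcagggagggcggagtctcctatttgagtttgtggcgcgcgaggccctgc

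The next 3 show p53 elements, which are pairs of half-sites, in genes that rose. SERPINB5 encodes a serpin found in epithelial cells and GDF15 a stress cytokine. Their elements each had 3 mismatches over 20 letters. These genes had the 2 largest rises among the listed direct targets considered whose RefSeq window held an element. Genes on the chromosome of CCNE2, which also carries TP53INP1 and RRM2B, were again left out. DDB2, a subunit of the nucleotide excision repair sensor, was added after the matches were seen because its element had 0 mismatches. Capitals mark the half-sites. The stretches are chr18:63476818-63476872, chr19:18386186-18386205 and chr11:47214979-47214999, all on the plus strand, and those of GDF15 and DDB2 lie just after the start site.
SERPINB5: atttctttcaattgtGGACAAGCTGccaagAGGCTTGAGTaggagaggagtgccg
GDF15: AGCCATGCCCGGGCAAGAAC
DDB2: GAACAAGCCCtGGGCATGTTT

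The deposited table held 20612 genes, of which 12466 (60.5%) were tested. The 4 libraries had from 45902800 to 51556000 alignments. Replicates differed by a median absolute log2 difference of 0.113 under DMSO and 0.126 under Nutlin-3A. All 4 libraries carried epithelial transcripts: 8 of 10 colorectal epithelium markers stood at 0.5 RPKM or more in each library, with summed levels of 2156 to 2344 RPKM under DMSO and 2796 to 2913 under Nutlin-3A, while VIL1 and LGALS4 stayed under 0.05 RPKM. Of 14 markers of other cell types, 2 (CD68 and COL1A1) reached 0.5 RPKM, 4 were listed at 0 in all 4 libraries (HBB, MYH7, PECAM1 and PTPRC), and the summed level was 6.14 to 7.69 RPKM under DMSO and 6.43 to 6.71 under Nutlin-3A. The part of these markers in the results was not tested beyond these levels.

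Genes that rose under Nutlin-3A did so by larger steps than those that fell. Genes were called where limma's adjusted p was under 0.05. In p53+/+ cells 983 genes (7.89%) were called higher and 1184 (9.5%) lower, 2167 in all, with a median log2 change of 0.66 among the higher and -0.53 among the lower. At 2-fold or more 240 rose and 168 fell, at a log2 change of 2 or more 31 rose and 1 fell, and at 3 or more 6 rose and 0 fell. The median over all tested genes was -0.02. A block on replicate number gave 3931 called genes, 1762 higher and 2169 lower. The count was 1040 without Nutlin-3A replicate 1 and 1054 without DMSO replicate 2. It was 1274 without DMSO replicate 1, where the order turned, with 663 higher and 611 lower, and median of ratios scaling gave 1044 higher and 1068 lower. RNA was measured in bulk, so a smaller number of cells in a cell cycle phase and less RNA per cell cannot be told apart.

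The calls were spread unevenly over expression levels. Among 1287 genes under 1 RPKM in DMSO, 10.1% were called higher and 1.24% lower. Between 20 and 100 RPKM, the 2583 genes gave 3.76% higher and 18.5% lower, and of 560 genes at 100 RPKM or more 1.96% were higher and 15.4% lower. The pseudocount shrinks log2 changes of genes with low RPKM, and the replicate difference was largest there (median 0.163 log2 units under 1 RPKM against 0.0981 between 20 and 100).

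**Figure D1:**
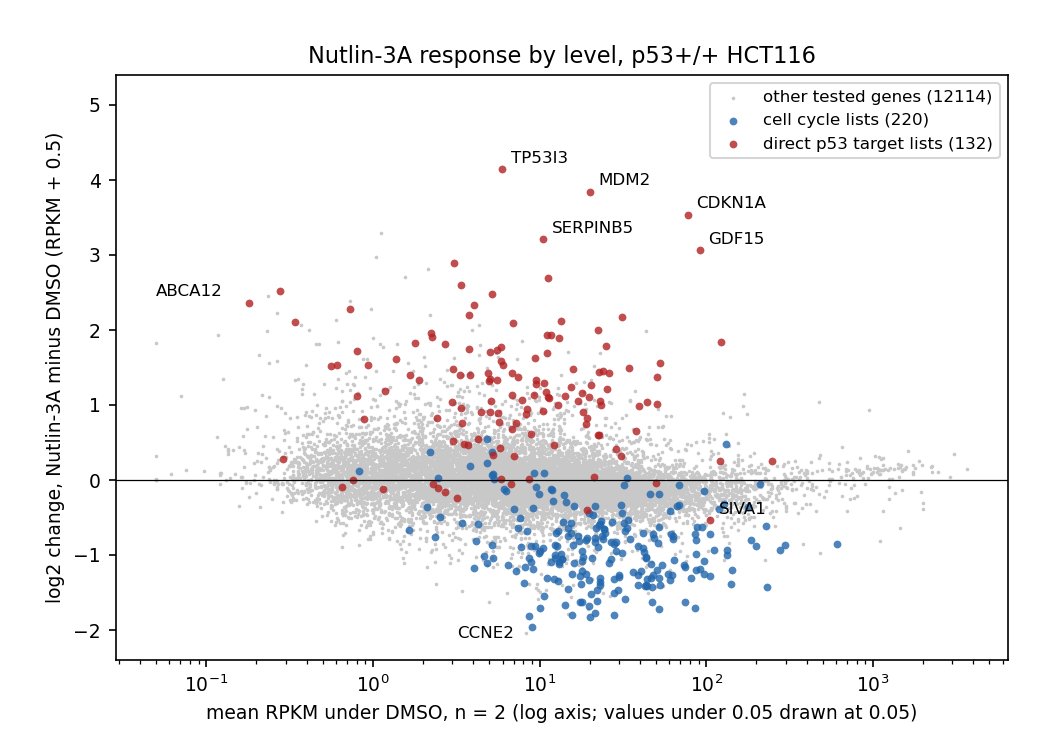
Mean RPKM under DMSO (log axis) against the log2 change with Nutlin-3A in p53+/+ cells, with 1 point per tested gene, direct p53 target lists in red, cell cycle lists in blue and other genes in grey. The red points reach 4.15 (TP53I3), while the lowest blue point is CCNE2 at -1.96.

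Of 145 listed direct p53 targets 132 passed the level filter, 106 of these were called higher and 1, SIVA1, lower, against 7.89% higher and 9.5% lower among all tested genes. Their median log2 change was 1.18, and 83 rose at least 2-fold. With the replicate block 115 were called higher and 2 lower, where 1762 and 2169 of all 12466 tested genes were. The lists were chosen with earlier results of these data known, so these counts describe their members and are not a test. The filter used a mean that includes Nutlin-3A libraries, but 128 of the 132 had a DMSO mean of at least 0.5 RPKM, and 103 of those rose. Of the 4 under 0.5 RPKM in DMSO, ABCA12, NECTIN4 and PLXNB3 rose and VWCE was not called. In 118 of the 132 the Nutlin-3A libraries both lay above the DMSO libraries and in 4 both lay below, where 27.6% and 34.5% of all tested genes did. The listed genes together took 0.602% and 0.568% of summed RPKM in the DMSO libraries and 1.81% and 1.66% in the Nutlin-3A libraries.

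Feedback regulators rose together. MDM2 had 20.4 and 20 RPKM under DMSO and 328 and 268 under Nutlin-3A, far apart with no overlap, a log2 change of 3.85 ± 0.12 (SE, adjusted p = 3.84e-09). TP53INP1, a stress-induced coactivator of p53, went from 3.74 and 2.42 to 26.0 and 25.0 RPKM (2.89 ± 0.21, adjusted p = 4.71e-06). Both replicates of each treatment were close for these genes compared with the gap between treatments. PHLDA3, an inhibitor of AKT, rose by 1.63, the ribosomal protein paralogue RPS27L by 1.38, the phosphatase PPM1D (WIP1), which switches off damage signalling, by 1.30, the ubiquitin ligase subunit FBXO22 by 1.11 and the cyclin CCNG1 by 1.04. That made 7 of 9 tested members. MDM4, the partner and relative of MDM2, was not called at 0.34 (adjusted p = 0.471, and 0.0156 with the replicate block), nor was the ubiquitin ligase gene RCHY1 at 0.01 (adjusted p = 0.977).

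All 10 tested growth arrest targets rose, with a median log2 change of 1.81. CDKN1A read 89.2 and 66.1 RPKM under DMSO and 1059 and 763 under Nutlin-3A, and the lower treated library stood far above both controls (3.54 ± 0.37, adjusted p = 5.68e-05). BTG2, an antiproliferative cofactor of mRNA deadenylation, went from 12.2 and 10.2 to 74.1 and 75.3 RPKM (2.69 ± 0.15, adjusted p = 8.49e-07). SFN, which encodes 14-3-3 sigma and holds cyclin B and CDK1 in the cytoplasm, had the highest DMSO level of this list, 106 and 141 RPKM, and reached 414 and 466 (1.84 ± 0.20, adjusted p = 8.06e-05). None of these groups overlapped. The polo-like kinases PLK3 (2.13) and PLK2 (1.94), GADD45A (1.78), TOB1 (1.16), SERTAD1 (1.06), the ubiquitin ligase subunit FBXW7 (0.91) and the repressor E2F7 (0.68) made up the rest. The SERTAD1 call was lost without DMSO replicate 2 (adjusted p = 0.168) or Nutlin-3A replicate 1 (0.166), and the E2F7 call without DMSO replicate 2 (0.0585).

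**Figure D2:**
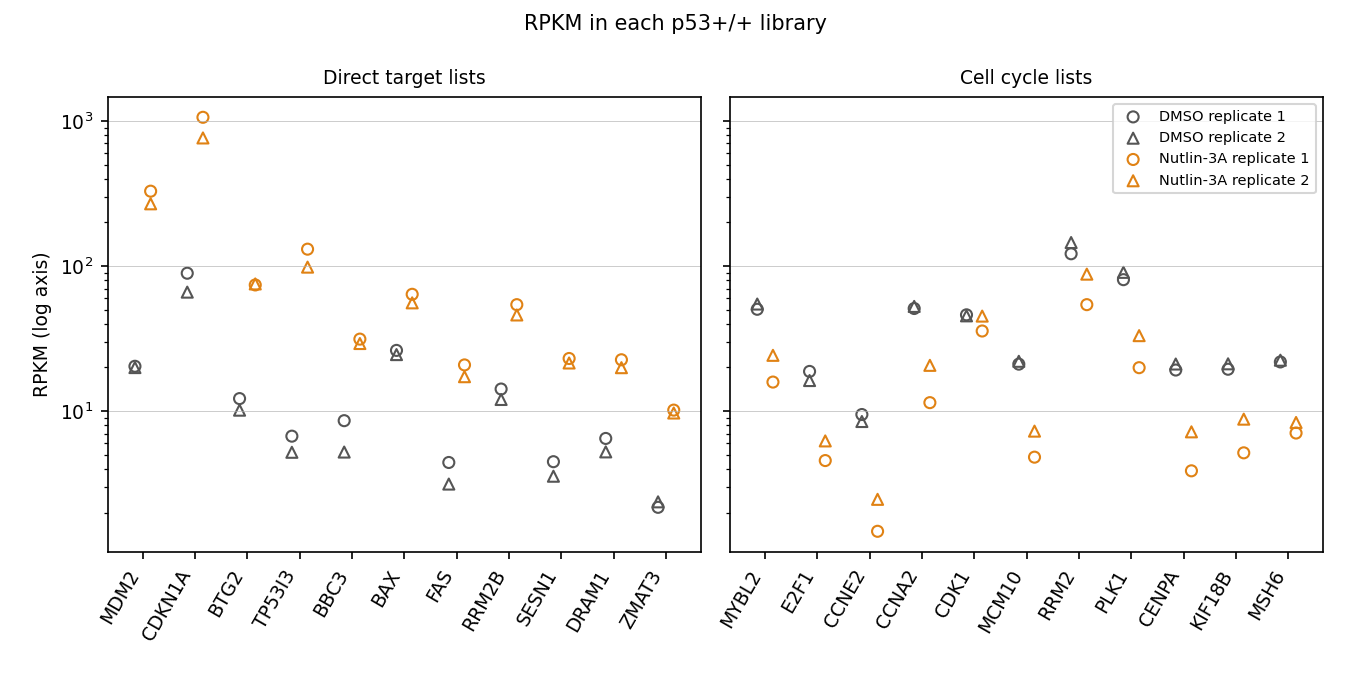
RPKM (log axis) of 11 direct targets and 11 cell cycle genes in each of the 4 p53+/+ libraries, DMSO in grey and Nutlin-3A in orange, circles for replicate 1 and triangles for replicate 2. The triangles of Nutlin-3A lie above its circles for every cell cycle gene drawn, as for CCNA2 at 11.4 and 20.7 RPKM, and treated and control points come closest for CDK1.

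In the mitochondrial apoptosis list 10 of 12 tested members rose and 1 fell. TP53I3, an oxidoreductase, had the largest rise of all tested genes, from 6.73 and 5.21 to 131 and 98.3 RPKM (4.15 ± 0.18, adjusted p = 1.88e-07). BBC3, which encodes the BH3-only killer PUMA, read 8.60 and 5.23 under DMSO and 31.4 and 29.2 under Nutlin-3A (2.09 ± 0.30, adjusted p = 0.000541). The pore former BAX went from 26.2 and 24.5 to 63.9 and 55.8 RPKM (1.22 ± 0.10, adjusted p = 1.05e-05). The treated libraries of these genes stood clear of the controls. FDXR, the mitochondrial ferredoxin reductase, rose by 2.17, SUSD6 by 1.82, the apoptosome scaffold APAF1 by 1.41, PIDD1 by 1.14, TRIAP1, which restrains apoptosis, by 0.98, PMAIP1, which encodes NOXA, by 0.74, and the exonuclease AEN by 0.60. SIVA1 went the other way, from 112 and 98.8 to 66.6 and 78.5 RPKM (-0.54 ± 0.15, adjusted p = 0.0238), a call lost without either DMSO replicate (0.154 and 0.0584) or Nutlin-3A replicate 1 (0.185), or with quantile normalization (0.0567). It had 106 and 74.2 RPKM under Nutlin-3A in p53-/- cells against 119 and 112 under DMSO, and the responses of the genotypes were not shown to differ (adjusted p = 0.751). PERP was not called (0.42, adjusted p = 0.0858, and 0.00638 with the replicate block).

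All 5 tested death receptor targets rose. TNFRSF10C, a TRAIL receptor without a signalling domain, went from 0.751 and 0.711 to 5.83 and 5.18 RPKM (2.28 ± 0.13, adjusted p = 1.03e-06). FAS read 4.43 and 3.15 under DMSO and 20.8 and 17.3 under Nutlin-3A (2.20 ± 0.22, adjusted p = 3.93e-05). Neither gene's groups overlapped. The signalling TRAIL receptors TNFRSF10B and TNFRSF10A rose by 1.5 and 0.91 and the decoy TNFRSF10D by 1.06. FAS overlaps ACTA2, smooth muscle actin, on the opposite strand in RefSeq, and ACTA2 rose by 2.71. Counting by strand is not recorded in the labels or the file, so reads of the pair may be shared.

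Of 8 DNA repair targets 5 rose. RRM2B, the p53-inducible subunit of ribonucleotide reductase, went from 14.2 and 12 to 54.2 and 46.0 RPKM (1.89 ± 0.13, adjusted p = 3.7e-06). DDB2, whose element is printed above, read 26.0 and 21.8 under DMSO and 67.8 and 64.9 under Nutlin-3A (1.46 ± 0.18, adjusted p = 0.000191). The treated libraries were higher in both with no overlap. The translesion polymerase POLH rose by 1.34, the lesion sensor XPC by 1.24 and TEP1 by 0.82, the last lost without Nutlin-3A replicate 2 (adjusted p = 0.0518). PCNA, the sliding clamp of replication, which is both a p53 target and an E2F-driven gene, read 249 and 247 under DMSO and 296 and 294 under Nutlin-3A, a log2 change of 0.25 that was not called (adjusted p = 0.0585). It was called higher with the replicate block (0.0117), with median of ratios scaling (0.0409) and with quantile normalization (0.00867). ERCC5 and REV3L were not called at 0.47 and 0.52 (adjusted p = 0.0656 and 0.14, and 0.00405 and 0.00289 with the block).

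Metabolic targets rose in 15 of 22 tested members, with a median of 1.31. ABCA12, a lipid transporter, was near absence under DMSO at 0.184 and 0.178 RPKM and reached 3.30 and 2.73 (2.36 ± 0.14, adjusted p = 1.31e-06). It passed the level filter only through libraries other than these DMSO ones. SESN1 and SESN2, sestrins that restrain mTORC1, rose by 2.34 and 1.59, SESN1 from 4.49 and 3.56 to 23.1 and 21.5 RPKM. The ceramidase ACER2 (1.83) and PANK1, which starts coenzyme A synthesis (1.61), were also among the 5 largest. SCO2, an assembly factor of cytochrome oxidase, read 20.1 and 18.5 under DMSO and 14.9 and 14.2 under Nutlin-3A and was not called (-0.40, adjusted p = 0.0745, and 0.00824 with the block). SCO2 overlaps NCAPH2, a condensin gene, in RefSeq, which was called lower (-0.60). The autophagy list had a median of -0.04, with 3 of 7 tested members called higher. DRAM1, a lysosomal membrane protein, rose from 6.49 and 5.24 to 22.6 and 19.9 RPKM (1.78 ± 0.12, adjusted p = 2.8e-06), and FUCA1, a lysosomal fucosidase (1.09), and the autophagy kinase ULK1 (0.54) rose. ULK2, ATG10, UVRAG and VMP1 lay between -0.12 and -0.04 and were not called (adjusted p = 0.612 to 0.857). The FUCA1 call was lost without either DMSO replicate (0.0583 and 0.222) or Nutlin-3A replicate 1 (0.237), and ULK1 without DMSO replicate 2 (0.0548).

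Secreted and surface proteins gave 17 rises among 21 tested members. SERPINB5 had 11.3 and 9.71 RPKM under DMSO and 118 and 87.6 under Nutlin-3A (3.22 ± 0.15, adjusted p = 2.15e-07). GDF15 was high in both states, 115 and 68.2 RPKM against 909 and 614 (3.07 ± 0.34, adjusted p = 7.34e-05). For both, the lowest treated library exceeded the highest control several times over. The metastasis suppressor CD82 (2.60) and the adhesion molecule NECTIN4 (2.52), which started at 0.325 and 0.227 RPKM, also rose. NECTIN4 too passed the level filter only through libraries other than these DMSO ones. KITLG, the ligand of KIT, was not called at 0.25 (adjusted p = 0.689), nor was the cytokine LIF at 0.82 (adjusted p = 0.102, and 0.0359 with the block). Among 38 tested targets of other functions 34 rose, led by the actin regulator EPS8L2 (2.00), the repressor HES2 (1.96), CYFIP2 (1.94), the RNA-binding protein ZMAT3 (1.91) and ANKRA2 (1.75). EPS8L2 went from 23.4 and 21.3 to 90.4 and 91.3 RPKM. PTP4A1 was not called at 0.66 (adjusted p = 0.143, and 0.00384 with the block), nor was SAC3D1 at 0.04.

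The 13 direct targets below the filter were not tested. PRDM1, a transcriptional repressor, had 0.117 and 0.118 RPKM under DMSO and 0.743 and 0.908 under Nutlin-3A. PTCHD4 had 0.1 and 0.123 against 0.676 and 0.585, TRIM22 0.109 and 0.154 against 0.511 and 0.822, and the glutaminase gene GLS2 0.0155 and 0 against 0.424 and 0.328. In these genes the treated libraries were higher, at levels of under 1 RPKM. CX3CL1 was listed at 0 in all 4 libraries, and TP53AIP1, RPRM, SPATA18, EDA2R and PADI4 stayed under 0.1 RPKM in each. LAPTM5 had 0.0188 and 0.0177 RPKM under DMSO and 0.1715 and 0.0796 under Nutlin-3A, and IGDCC4 0.175 and 0.208 against 0.395 and 0.337. IGFBP3 had 0.08 and 0.0905 against 0.0973 and 0.0847, which overlap. Of 4 tested noncoding RNAs linked to p53, 3 rose: MIR34AHG, the host transcript of miR-34a, by 1.45, NEAT1, the scaffold of paraspeckles, by 1.09, and PVT1 by 0.51. The NEAT1 call ended without Nutlin-3A replicate 2 (adjusted p = 0.0513) and PVT1 without DMSO replicate 2 (0.101) or Nutlin-3A replicate 1 (0.102). LINC-PINT was not called at 0.39 (adjusted p = 0.253, and 0.0484 with the block).

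Cell cycle genes fell broadly, by smaller amounts. Their lists too were chosen with earlier results of these data known, so the counts describe the members only. Of 220 listed genes, all of them tested, 175 were called lower and 2 higher, against 9.5% and 7.89% of all genes, with a median of -0.89, and 94 fell at least 2-fold. With the replicate block 190 were called lower and 4 higher, where 2169 and 1762 of all 12466 tested genes were. Both Nutlin-3A libraries lay below both DMSO libraries in 201 and above them in 5, where 34.5% and 27.6% of all tested genes did. Together the lists took 2.45% and 2.56% of summed RPKM in the DMSO libraries and 1.24% and 1.61% in the Nutlin-3A libraries, which did not overlap. The proteasome list, taken as a reference outside the cell cycle, had a median of -0.15, 0 of 30 members higher and 2 lower, PSMD2 (-0.27) and PSMC2 (-0.25). With the replicate block 10 of the 30 were called lower and 0 higher, a larger share lower than the 2169 of all 12466 tested genes. Each of these 2 calls ended without DMSO replicate 1, without DMSO replicate 2 and without Nutlin-3A replicate 1 (adjusted p = 0.101 to 0.23), and with quantile normalization (0.128 and 0.294).

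**Figure D3:**
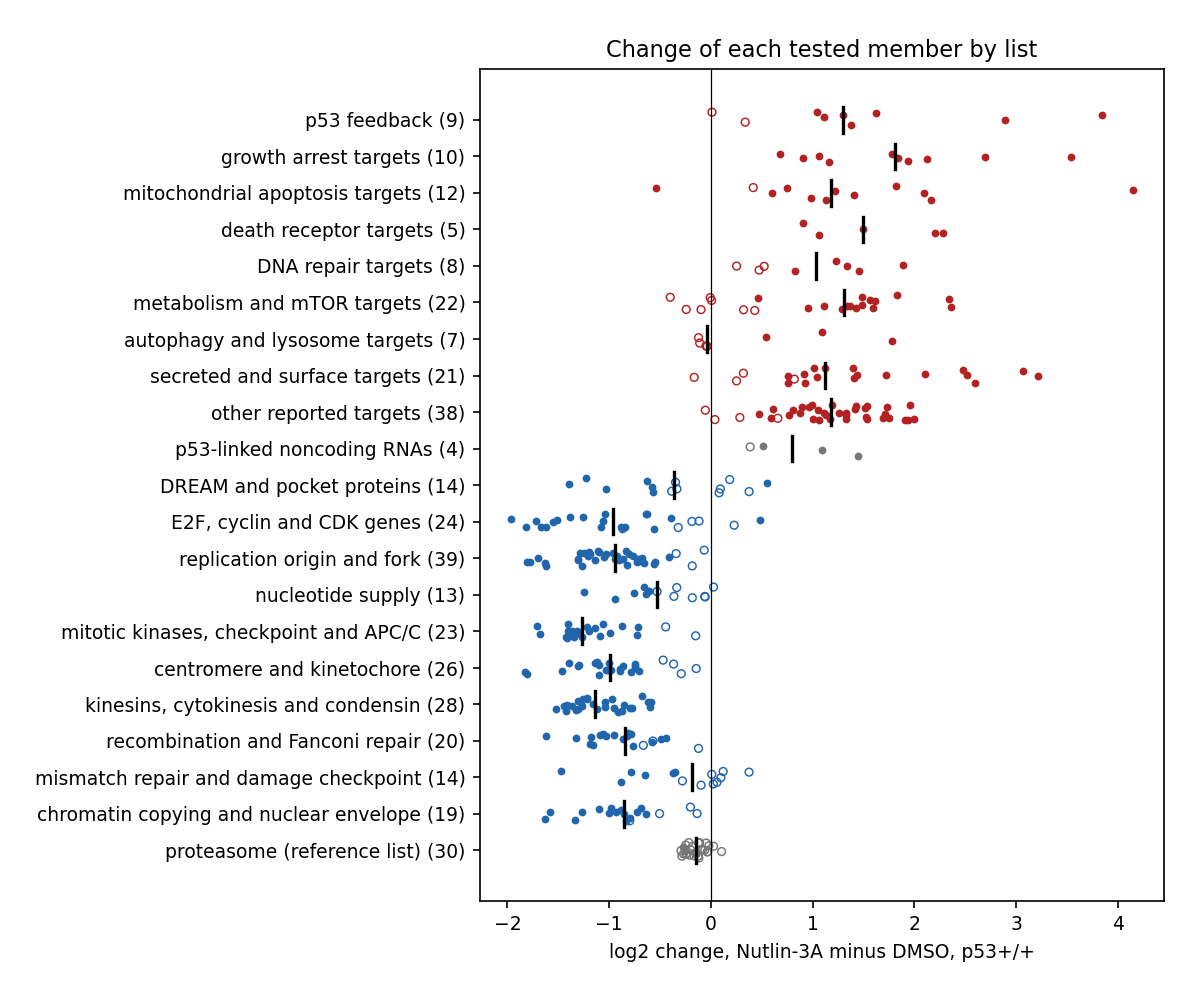
Log2 change with Nutlin-3A in p53+/+ cells of each tested member of 21 lists, with the number tested in brackets, filled points called at an adjusted p under 0.05, open points not called and black bars at the list medians. Medians of the direct lists run from -0.04 (autophagy and lysosome) to 1.81 (growth arrest), and those of the cell cycle lists from -1.26 (mitotic kinases) to -0.19 (mismatch repair and damage checkpoint).

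Genes of the DREAM complex, the pocket proteins and the factors listed with them changed unevenly. In the DREAM and pocket protein list 6 of 14 fell and 1 rose. MYBL2, which joins the MuvB core to activate mitotic genes, went from 50.4 and 54.7 to 15.9 and 24.2 RPKM (-1.40 ± 0.18, adjusted p = 0.000204), and FOXM1, which acts with it, fell by 1.22. The pocket protein gene RBL1 fell by 1.03 and the E2F partner TFDP1 by 0.62. LIN54, the DNA-binding subunit that reads the CHR, was called lower at -0.58 and LIN9 at -0.57, both lost without DMSO replicate 1 (adjusted p = 0.0613 and 0.122), without DMSO replicate 2 (0.0795 and 0.104) or without Nutlin-3A replicate 1 (0.108 and 0.117), and LIN9 also without Nutlin-3A replicate 2 (0.104). TFDP2 rose by 0.55, lost without DMSO replicate 2 (0.0949) or Nutlin-3A replicate 1 (0.0728). RBL2 (0.38), RB1 (0.09), LIN37 (0.08), E2F5 (0.19), E2F4 (-0.35), LIN52 (-0.38) and RBBP4 (-0.33) were not called. With the block RBL2 was called higher (0.0252) and E2F4 (0.0145), LIN52 (0.0289) and RBBP4 (0.0046) lower.

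E2F, cyclin and CDK genes fell in 19 of 24. CCNE2, a cyclin of S phase entry, went from 9.48 and 8.49 to 1.49 and 2.47 RPKM (-1.96 ± 0.22, adjusted p = 8.12e-05), a mean 4.54-fold lower. E2F2 read 8.74 and 8.57 under DMSO and 1.65 and 2.63 under Nutlin-3A (-1.82 ± 0.22, adjusted p = 0.000169). CCNA2, the cyclin of S and G2 phase, went from 51.0 and 52.7 to 11.4 and 20.7 RPKM (-1.72 ± 0.24, adjusted p = 0.00039). No treated library approached a control in these genes. CDC25A, the phosphatase that activates CDK2, fell by 1.67 and E2F1 by 1.62. CDK1, the mitotic kinase, read 46.1 and 45.4 RPKM under DMSO and 35.7 and 45.2 under Nutlin-3A and was not called (-0.19, adjusted p = 0.488). CCNB1, its partner cyclin, was called lower at -1.38 and is named after its value was seen. CKS1B was not called at -0.32 (adjusted p = 0.0668, and 0.0278 with the block). CCND1, the cyclin of G1, was the second cell cycle gene called higher, 115 and 147 against 184 and 179 RPKM (0.48 ± 0.15, adjusted p = 0.0462), a call lost without DMSO replicate 1 (0.313), Nutlin-3A replicate 1 (0.184) or Nutlin-3A replicate 2 (0.131).

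Replication genes fell in 35 of 39, with a median of -0.95. DTL, which with CUL4 degrades the licensing factor CDT1, went from 16.8 and 14.6 to 3.34 and 5.07 RPKM (-1.80 ± 0.19, adjusted p = 5.68e-05). MCM10, which loads onto the helicase at initiation, read 21.1 and 22.1 under DMSO and 4.82 and 7.29 under Nutlin-3A (-1.78 ± 0.18, adjusted p = 4.98e-05). The groups lay far apart, with Nutlin-3A replicate 1 the lower treated library in both genes. The checkpoint adaptor CLSPN (-1.70), the GINS subunit GINS2 (-1.63) and the origin recognition subunit ORC1 (-1.62) fell alike. All members of the MCM2 to MCM7 helicase, named as a complex after their values were seen, were called lower, from -0.80 (MCM7) to -1.29 (MCM2). LIG1, which joins Okazaki fragments, was not called at -0.06 (34.7 and 29.4 against 30.6 and 30.4 RPKM, which overlap), nor was RPA3 at -0.34. Genes of nucleotide supply divided. UNG, which removes uracil from DNA, fell by 1.25, RRM2, the S phase subunit of ribonucleotide reductase, by 0.94, DCK by 0.75, SHMT1 by 0.65, DUT by 0.64 and TK1 by 0.61. TYMS (-0.06), ATIC (-0.06), CTPS1 (0.03), GART (-0.18), RRM1 (-0.33) and PAICS (-0.36) were not called. RRM1 (0.00529) and PAICS (0.0132) were called lower with the block. TYMS, which makes thymidylate, read 210 and 212 RPKM under DMSO and 191 and 216 under Nutlin-3A, an overlap. Without Nutlin-3A replicate 1 the calls of UNG (0.0663), RRM2 (0.061), DCK (0.0625), DUT (0.0886) and TK1 (0.181) were lost. RRM2 was also lost without DMSO replicate 2 (0.065), DCK without DMSO replicate 1 (0.0567), and TK1 without either DMSO replicate (0.179 and 0.0651) or without Nutlin-3A replicate 2 (0.0622).

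Mitotic genes fell nearly throughout. All 28 genes of kinesins, cytokinesis and condensin were called lower (median -1.14), as were 21 of 23 mitotic kinase, checkpoint and APC/C genes (median -1.26) and 22 of 26 centromere and kinetochore genes (median -0.99). Without Nutlin-3A replicate 1 the counts were 18 of 28 for the kinesin list and 12 of 26 for the centromere list, and the latter was 14 without DMSO replicate 2. PLK1, the kinase of mitotic entry and exit, went from 80.6 and 90.5 to 19.9 and 33.1 RPKM (-1.71 ± 0.17, adjusted p = 4.6e-05). CDC20, the activator of the APC/C, was the most abundant of the 5 named here and read 229 and 236 under DMSO and 71.6 and 104 under Nutlin-3A (-1.43 ± 0.14, adjusted p = 4.61e-05). FBXO5, which holds the APC/C in check, fell by 1.68, the checkpoint kinase BUB1 by 1.41 and CDCA8, a subunit of the chromosomal passenger complex, by 1.40. BUB3 and FZR1 were not called at -0.15 and -0.44 (adjusted p = 0.273 and 0.0678, and FZR1 0.00169 with the block).

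At the centromere, CENPA went from 19.2 and 21.1 to 3.88 and 7.20 RPKM (-1.83 ± 0.23, adjusted p = 0.000211) and its chaperone HJURP from 25.8 and 30.3 to 5.69 and 10.2 (-1.81 ± 0.25, adjusted p = 0.000424). Both dropped more than 2-fold in either treated library against either control. The microtubule-binding genes NDC80 (-1.47), SKA3 (-1.39) and SKA1 (-1.30) fell, while SKA2 was not called at -0.47 (adjusted p = 0.0524, and 0.0194 with the block), nor was CENPH at -0.29 (0.323, and 0.0258 without DMSO replicate 2). KIF18B, a kinesin of microtubule length control, went from 19.4 and 21.2 to 5.16 and 8.81 RPKM (-1.52 ± 0.22, adjusted p = 0.00046). KIFC1, KIF2C and KIF23 fell by 1.45, 1.43 and 1.41, and KIF14 by 1.37, the last lost without Nutlin-3A replicate 1 (0.0617).

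Repair genes were mixed. Of 20 recombination and Fanconi genes 17 fell, among them the nuclease EXO1 (-1.62), BARD1 (-1.17) and XRCC2 (-1.16), the last lost without Nutlin-3A replicate 1 (adjusted p = 0.0575). The count of 17 became 10 without Nutlin-3A replicate 1. EXO1 went from 17.8 and 18.1 to 4.52 and 6.64 RPKM with no overlap. FANCD2 was not called at -0.57 (adjusted p = 0.0619, 0.000311 with the block, and 0.0332 without Nutlin-3A replicate 2). In the mismatch repair and checkpoint list 6 of 14 fell, with a median of -0.19. MSH6, which recognises mismatches, was the largest, from 21.8 and 22.5 to 7.07 and 8.36 RPKM (-1.47 ± 0.09, adjusted p = 2.16e-06), and its replicates lay close together. The checkpoint kinase CHEK1 fell by 0.88 and the clamp subunit RAD9A by 0.64. MSH3, PMS1, RAD17, HUS1 and ATR lay between -0.10 and 0.12 and were not called. Of 19 genes that copy chromatin or build the nuclear envelope 15 fell: UHRF1, which guides maintenance methylation, by 1.63, the chaperone subunits CHAF1A, CHAF1B and ASF1B by 1.58, 1.10 and 1.33, and the lamin LMNB1 by 1.26. HELLS and EED were not called at -0.80 and -0.20 (adjusted p = 0.0705 and 0.196, and HELLS 0.0005 with the block).

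The replicates differed in how far cell cycle genes fell. Over the 175 called lower, the median log2 change was -1.21 between the libraries numbered 1 and -0.86 between those numbered 2, and it was larger for number 1 in 170. Nutlin-3A replicate 1 was the lower of the treated libraries in 169, with a median ratio of 0.742 to replicate 2, while the DMSO libraries had a median ratio of 0.987. Over all 1184 genes called lower, which include these, the median changes were -0.568 and -0.506. There the change was larger for number 1 in 779, and Nutlin-3A replicate 1 was the lower in 804 (median ratio 0.935). The 106 direct targets that rose had medians of 1.37 and 1.41, and 55 changed more between the libraries numbered 1. This pattern was noticed in these libraries and was not tested. The cell cycle count of 177 calls was 124 without Nutlin-3A replicate 1 and 172 without replicate 2.

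**Figure D4:**
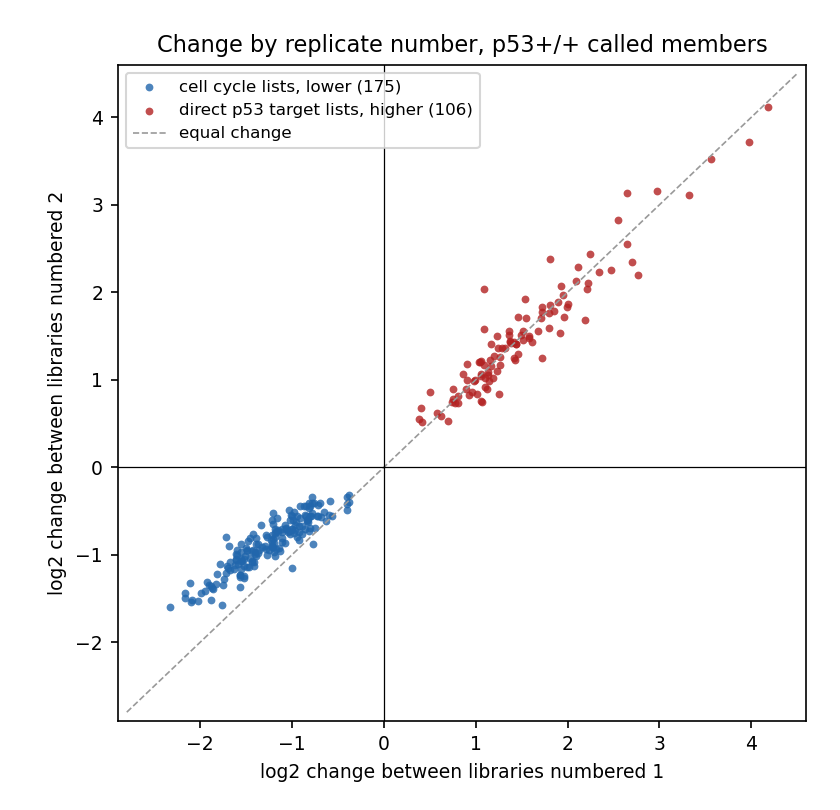
Log2 change between DMSO and Nutlin-3A libraries of replicate number 1 (horizontal) and number 2 (vertical) for the 106 direct targets called higher (red) and the 175 cell cycle genes called lower (blue). Red points scatter around the dashed line of equal change, and 170 of the blue points lie above it, where the fall was larger in number 1.

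In p53-/- cells 0 of 12466 genes were called (0%), and 440 had an unadjusted p under 0.05. The replicate block also gave 0 calls but 1323 genes at that unadjusted level, and omitting Nutlin-3A replicate 1 of p53-/- cells gave 0 calls and 1306 such genes. Direct targets had a median log2 change of 0.01 there and cell cycle genes of 0.05. MDM2 read 14.6 and 14.7 RPKM under DMSO and 18.3 and 22.1 under Nutlin-3A in p53-/- cells (0.44, adjusted p = 0.956 after correction, unadjusted 0.00247). CDKN1A overlapped between treatments, at 23.7 and 14.1 against 26.9 and 16.7 RPKM. The difference between the genotypes' responses was tested directly: 435 genes (3.49%) responded higher and 410 (3.29%) lower in p53+/+ cells. Among them were 93 direct targets in the higher set with 0 in the lower. The lower set held 133 cell cycle genes and the higher set 0. Because the lists were chosen with earlier results of these data known, these list counts are descriptions. With the replicate block 2126 genes differed, 1049 higher and 1077 lower. Leaving out DMSO replicates 1 and 2 of p53+/+ cells in turn gave 494 and 424, and leaving out their Nutlin-3A replicate 1 gave 433. The same for DMSO replicates 1 and 2 of p53-/- cells gave 481 and 488, and for their Nutlin-3A replicate 2 it gave 453.

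**Figure D5:**
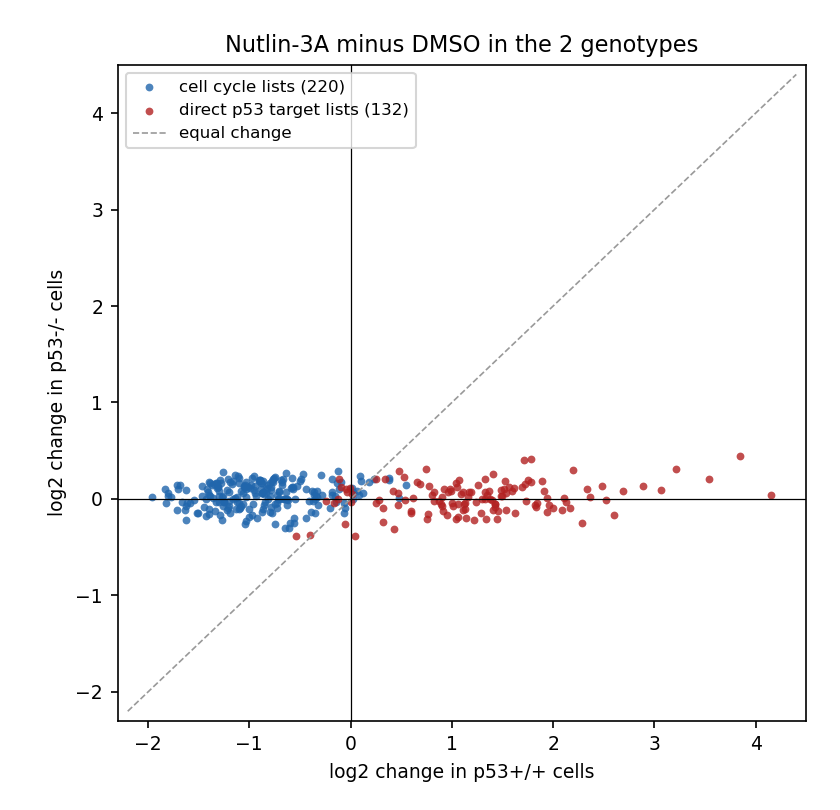
Log2 change with Nutlin-3A in p53+/+ cells (horizontal) against p53-/- cells (vertical) for 132 direct targets (red) and 220 cell cycle genes (blue), with a dashed line of equal change. Points spread from -1.96 to 4.15 along the horizontal axis and stay near 0 on the vertical, where MDM2 has the highest value at 0.44.

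Most called genes were in no list. Of 12070 tested genes outside the lists 870 rose and 1005 fell, 154 and 74 of them at least 2-fold. Among the rises SULF2, an extracellular sulfatase, went from 2.33 and 1.93 to 19.9 and 16 RPKM (2.81 ± 0.28, adjusted p = 3.95e-05), and INPP5D, the phosphatase SHIP1, from 0.235 and 0.237 to 3.64 and 3.39 (2.45 ± 0.14, adjusted p = 1.03e-06). The receptor PTAFR (2.39), FAM212B (2.28), DRAXIN (2.23), the phosphatase PTPRE (2.20), WDR63 (2.14), RINL (2.07) and the cytochrome CYP4F3 (2.06) rose as well. UNC5B-AS1 (2.97) overlaps UNC5B, a netrin receptor gene among the listed targets that rose by 0.91, and reads of the pair may be shared. INPP5D, DRAXIN and CYP4F3 had under 0.5 RPKM in both DMSO libraries and so passed the level filter through treated libraries. All of these rises were chosen by their size in p53+/+ cells, which the genotype difference contains, so that difference is not given as a test of them.

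The falls outside the lists were led by ZNF367, from 8.45 and 8.13 to 1.12 and 2.32 RPKM (-2.04 ± 0.26, adjusted p = 0.000228), the only gene of the comparison with a fall past 2 on the log2 scale. WDR76 fell by 1.79, the chromatin phosphatase subunit CDCA2 by 1.71, TICRR, which starts replication origins, by 1.59, STIL, a centriole duplication factor, by 1.56, ARHGAP11A by 1.54, PSRC1 and the helicase PIF1 by 1.51 and 1.5, CEP55, which recruits the abscission machinery, by 1.5, GSG2, the kinase haspin, by 1.5, and FAM111B by 1.47. CDKN2C, which encodes the CDK4 and CDK6 inhibitor p18, also fell, from 5.03 and 4.95 to 1.05 and 1.55 RPKM (-1.62 ± 0.21, adjusted p = 0.00026). None of these 12 overlapped between treatments, which the rule that named them required.

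Promoter words were found in different shares of genes that rose and fell. RefSeq gave 1 window of 300 bases (250 before to 50 after the start) for 7056 of the tested genes, 6664 by symbol and 392 by an older symbol. A CHR stood in 10.4% of these windows, in 21.7% of the 678 of genes called lower and in 49.6% of the 115 of genes lower by 2-fold or more, against 6.99% of the 529 of genes called higher. E2F-type words were in 18.9% of all, 32.9% of lower, 40.9% of 2-fold lower and 13.8% of higher genes. They also stood in 9 of 20 proteasome windows (45%) and in 21.4% of 70 windows of direct targets. A CHR together with a CCAAT box (CCAAT), words that can overlap at their ends, was in 4.8% of all and 40% of the 2-fold lower windows. Outside the lists the 45 windows of 2-fold lower genes held a CHR in 51.1% and an E2F-type word in 35.6%. Among all 35116 RefSeq windows the shares were 16.4% for the CHR, 11% for the E2F-type words and 34.6% for the CCAAT box. Words differ in base composition, and the windows of 2-fold lower genes had a median GC content of 64.3% against 66% for all. These shares are descriptions and were not tested.

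The 2 words divided some of the cell cycle lists and not others. An E2F-type word stood in 24 of 28 replication windows and a CHR in 2, while a CHR stood in 10 of 12 mitotic kinase windows and 18 of 21 kinesin, cytokinesis and condensin windows, with E2F-type words in 1 and 4. Centromere and kinetochore windows held a CHR in 12 and an E2F-type word in 7 of 19. Each word stood in 4 of 12 windows of E2F, cyclin and CDK genes. In the chromatin copying and nuclear envelope list each stood in 5 of 13. Among cell cycle windows, the median log2 change was -1.21 with a CHR alone (38 genes), -0.97 with an E2F-type word alone (48), -1.04 with both (15) and -0.80 with neither (33). Over all tested genes the medians were -0.06, -0.10, -0.17 and 0.00, with 18.7%, 15.6%, 25.7% and 6.71% called lower.

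The p53 element was rare in these windows whatever the direction of change. It matched in 3% of all windows, 2.65% of those of higher genes, 4.72% of those of genes higher by 2-fold or more (127 windows), 3.1% of lower genes, and 4.49% of all RefSeq windows. Over the start sites searched, 17 of 110 direct targets with a window and 13 of 186 cell cycle genes held an element. Genes on the chromosome of CCNE2, TP53INP1 and RRM2B were left out of this count. It covered 180 windows of direct targets and 258 of cell cycle genes. Among genes with 1 window the shares were close, 4 of 70 direct targets (5.71%) and 7 of 134 cell cycle genes (5.22%). Besides SERPINB5, GDF15 and DDB2, the 17 direct targets included ABCA12, SESN1, FAS and PANK1 with 3, 3, 2 and 3 mismatches. A match is a description of letters, and the absence of one says only that they are not in this window.

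Of 8 tested epithelial markers 2 were called higher and 1 lower, where 7.89% and 9.5% of all tested genes were. With 8 members these counts describe single genes only. KRT19 had 503 and 450 RPKM under DMSO and 1079 and 881 under Nutlin-3A (1.04, adjusted p = 0.0428), ELF3 rose by 0.51 (adjusted p = 0.0187) and EPCAM fell by 0.31 (adjusted p = 0.0377). The KRT19 and EPCAM calls ended on leaving out any 1 of the 4 libraries (adjusted p = 0.0889 to 0.222 and 0.084 to 0.215), that of EPCAM also with median of ratios scaling (0.0562) and quantile normalization (0.184). ELF3 was lost without DMSO replicate 2 (0.194), Nutlin-3A replicate 1 (0.101) or Nutlin-3A replicate 2 (0.0725). KRT8, KRT18, CDH1, CDX2 and CLDN4 were not called, CDX2 and CLDN4 being called higher with the block (0.0394 and 0.00036).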

How the data were processed

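Polyadenylated RNA of HCT116 cells was sequenced in 16 libraries, 8 groups of 2, of which 4 are compared here. The deposited table gives RPKM per gene, computed by the authors. The submitters' processing notes name Bowtie2, hg19 and Partek. Versions, read filters, gene models and strand handling: not given in the sources used here. Alignments per library, from the labels, ran from 45902800 to 55507300. RPKM holds no counts, so no count test was run.

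Values were taken as log2(RPKM + 0.5), on which a log2 change understates the fold of low genes. The level filter was a mean of 0.5 RPKM or more across all 16 libraries. limma 3.58.1 in R 4.3.3 fitted 8 group means to the 16 libraries with an intensity trend (8 residual and 4.09 prior degrees of freedom), and p was adjusted by Benjamini-Hochberg over 12466 genes. The code was tested on simulated data. The difference between genotypes is the interaction contrast of the same fit.

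The 23 gene lists and the members were chosen with earlier results of these data known. Named are MDM2, CDKN1A and TP53I3, of each list the 5 called members with the largest change per direction and the 2 most abundant that were not called, all members of lists of 14 or fewer, and outside the lists the 12 largest rises and falls with a mean of at least 1 RPKM and no overlap. Some of these genes are not reported here. The symbols MIR34A, TP53TG1, PURPL and TP53COR1 matched no gene name in the data, and other names for these genes were not searched.

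The main fit held no block on replicate number, so its counts and adjusted p leave out any pairing. Replicate numbers were taken as pairing in an alternative fit only. Deviations of same-numbered libraries correlated across genes in all 28 pairs of groups (r from 0.275 to 0.778, and 0.433 between the p53+/+ DMSO and Nutlin-3A groups). A fit with the number as a block, other pseudocounts, filters and scalings, no intensity trend, only the compared libraries and leaving out each library were alternatives. A p53 element was a pair of half-sites at most 13 bases apart, with both cores kept and at most 3 mismatches in 20 letters. Figures were drawn with matplotlib 3.10.9.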

Additional observations from a re-analysis of the deposited data

Results flagged for a closer look

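In 18 of the 19 list leaders, the member of each of the direct and cell cycle lists with the largest change, the Nutlin-3A response differed between the genotypes past limma's threshold for the difference itself, which is why they are given here. The values are log2 responses of p53+/+ cells minus those of p53-/- cells. Among direct targets the difference was 4.11 for TP53I3, 3.4 for MDM2, 3.34 for CDKN1A, 2.91 for SERPINB5, 2.54 for TNFRSF10C, 2.34 for ABCA12, 2.1 for EPS8L2, 1.7 for RRM2B and 1.6 for DRAM1, with adjusted p from 1.01e-06 to 0.00273. Among cell cycle genes it was -1.99 for CCNE2, -1.93 for CENPA, -1.83 for DTL, -1.71 for EXO1, -1.6 for PLK1, -1.52 for UHRF1, -1.5 for MSH6, -1.37 for KIF18B and -1.25 for MYBL2, with adjusted p from 7.83e-05 to 0.0184. The difference for UNG, -1.21, did not pass (adjusted p = 0.0694). The genes were chosen by the size of their change in p53+/+ cells, which the difference contains. The selection therefore favours large differences, and the values describe the leaders of each list without testing them. ABCA12 had under 0.5 RPKM in both p53+/+ DMSO libraries and passed the level filter only through other libraries.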

How the results depend on the processing

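With the replicate number as a block, which the pairing of same-numbered libraries called for, 3931 genes were called in p53+/+ cells in place of 2167, and 2126 differed in response between genotypes in place of 845. The block gained 26 of the 203 named genes and lost 0. Leaving out 1 library left 1040 to 1452 calls in p53+/+ cells, 94 to 103 among direct targets, 124 to 172 among cell cycle genes, 0 in p53-/- cells, and 424 to 696 differences between genotypes. Without a level filter 1 gene was called in p53-/- cells, and 7 named genes lost their call in p53+/+ cells (adjusted p = 0.0522 to 0.107), among them SERTAD1, FUCA1, TK1, LIN9 and CCND1. No named gene that was called in the main fit reversed its direction under the alternatives run. Some named genes that were not called changed sign, among them CENPH (-0.635 to 0.0537), RCHY1 (-0.116 to 0.139) and VMP1 (-0.13 to 0.0795). Named genes lost their call in 23 cases without Nutlin-3A replicate 1, 18 without DMSO replicate 2, 12 without DMSO replicate 1 and 9 without Nutlin-3A replicate 2, where the lone library is assumed to vary like the other groups. Higher calls made up 45.4%, 49.4% under median of ratios scaling, 48.8% under quantile normalization and 52% without DMSO replicate 1 of p53+/+ cells. The cause of these shifts was not tested. Depth per gene cannot be read from RPKM, and 2 libraries a group limit the precision.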
